A study of Homo sapiens with 6 samples.

Results

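The translation initiation and elongation factors examined here are 44 genes of 60668 in the table, chosen by name: the subunits of the cap-binding complex with its poly(A)-binding partners, the proteins that restrain that complex, the 13 subunits of eIF3, the factors that act on the initiator tRNA, the start codon and subunit joining, and the elongation factors of the eEF1 group with EIF5A. All 44 symbols were found in the table through their Ensembl identifiers. In MiaPaCa-2, an established human pancreatic ductal adenocarcinoma cell line, RNA was sequenced after 48 h in low glucose (2.5 mM, 3 libraries) and compared with control cultures (25 mM, 3 libraries). The series describes the 3 samples of each condition as independent biological replicates, and the labels name no edited gene and no drug for either group. Control libraries held 9741183, 10126218 and 10190154 reads on genes and low-glucose libraries 10595408, 10841656 and 13733477, and values of single libraries are given below in this order, controls first. Values are normalized counts, that is gene counts divided by a size factor of each library.

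Translation of most mRNAs starts when eIF4E binds the 5′ cap, joins the scaffold eIF4G and the helicase eIF4A, and recruits the small ribosomal subunit through eIF3. The 4E-BPs compete with eIF4G for eIF4E while they are hypophosphorylated, which is the state that follows inhibition of mTORC1, and PDCD4 binds eIF4A. Many mRNAs for ribosomal proteins and translation factors begin with a 5′ terminal oligopyrimidine tract (TOP), a C followed by a run of C and T (U in the mRNA), through which their translation follows nutrient supply. Elongation uses eEF1A to deliver aminoacyl-tRNA, the eEF1B subunits to recharge it, and eIF5A to keep ribosomes moving through difficult stretches.

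The labelled cell type was checked first. KRT8, KRT18 and KRT19 had at least 2001 reads in every library and VIM at least 51599, whereas the epithelial markers EPCAM and CDH1 had at most 3 reads. PTPRC, CD3E and DCN had none, PECAM1 and VWF had at most 4, COL1A1 had 3 to 14 and CD14 had 11 to 45. The share of all reads held by members was 2.62% to 2.82% among controls and 2.90% to 3.01% among low-glucose libraries. EEF1A1 alone took 1.14% to 1.17% and 1.43% to 1.52%. Without it, the shares were 1.48% to 1.65% and 1.47% to 1.49%, ranges that overlap. RNA-seq of bulk cultures gives relative levels and cannot tell fewer cells from less RNA per cell.

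Low glucose moved single factors in both directions, and with the deposited scaling the group had no common shift. Of 43 members that passed the filter of a mean normalized count of at least 1, 10 were higher and 11 were lower at an adjusted p under 0.05 (limma on log2 values, adjusted over all genes tested). Over all 21101 genes tested, 30.9% passed this threshold, 14.7% higher and 16.2% lower. The members' shares were 48.8%, 23.3% and 25.6%. Their median log2 fold change was −0.0037, against 0.05 over all genes tested. This balance depended on the scaling. After quantile normalization 17 members were higher and 7 lower, with a median of 0.16, against 2900 and 3125 of all genes tested. After scaling by library size 15 were higher and 10 lower, against 3935 and 2647. Groups did not overlap for 30 of 43 members, against 43.9% of all genes tested. edgeR on the recovered reads called 42.8% of its 15322 genes and, of the members, 11 higher and 11 lower, and DESeq2 called 31.5% of 17421 genes and, of the members, 10 higher and 11 lower. EEF1G, a subunit of the eEF1B exchange factor, was listed at 0 in all 6 libraries and was not tested. In the annotation used here (Gencode v44, hg38) 2632 of its 2639 exonic bases are shared with another gene model on the same strand, which held 10 to 29 reads per library.

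**Figure D1:**
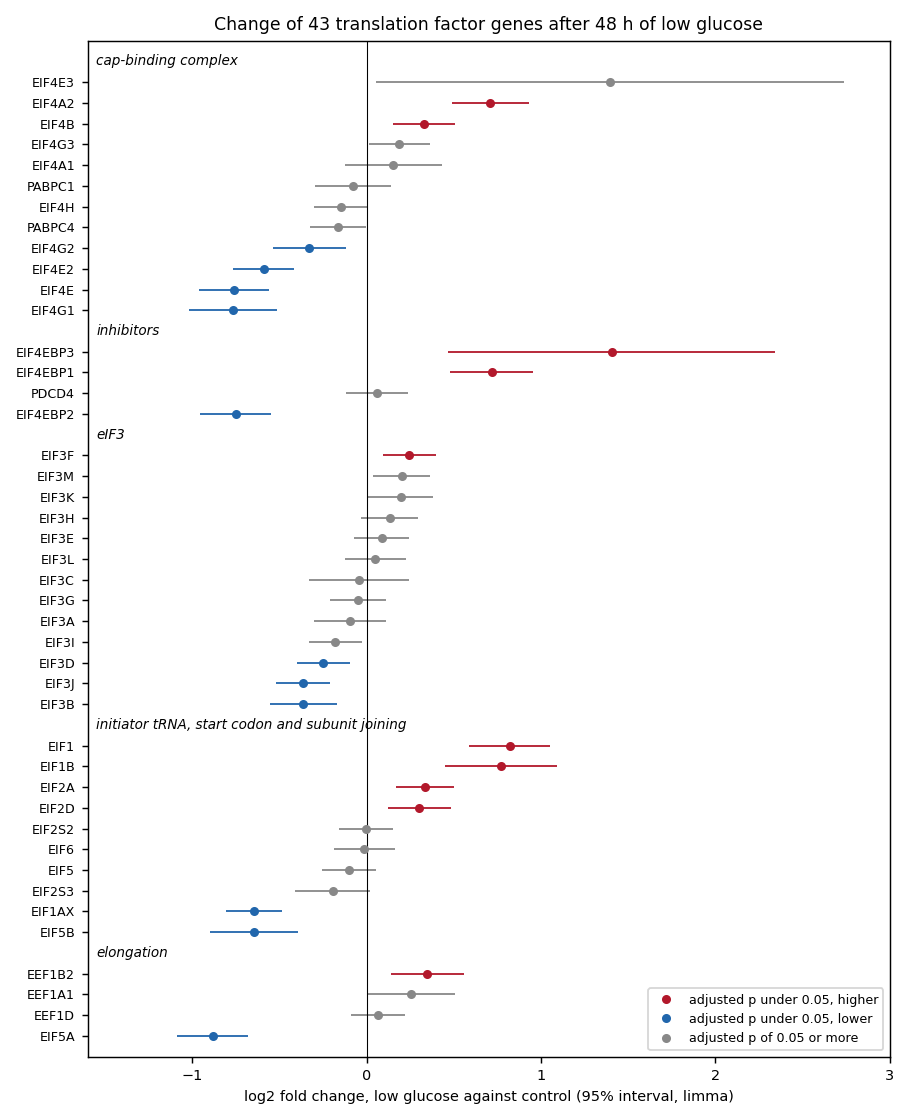
Log2 fold change (x axis) of the 43 members tested, in low glucose against control, grouped by role, with points for the estimate and bars for the 95% interval of limma (n = 3 libraries per group). Red points mark the 10 members called higher, blue points the 11 called lower, and the lowest of all is EIF5A at −0.88.

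Most members are abundant mRNAs, a class in which a larger share of genes fell than over all genes tested. Among the 2317 genes that averaged 1000 normalized counts or more, 48.6% were lower and 13.4% higher, with a median log2 fold change of −0.22. Of the 33 members in this range, 27.3% were lower and 18.2% higher, with a median of −0.05. This level was chosen after the values had been seen and the difference was not tested.

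In the cap-binding complex, mRNAs of the cap-binding protein and its main scaffold fell and that of a helicase rose. Of the 12 members, 2 rose (16.7%), 4 fell (33.3%) and 6 did not pass the test. Over all genes tested 14.7% rose and 16.2% fell, and over the 2317 abundant genes 13.4% rose and 48.6% fell. EIF4E, the cap-binding protein, was at 719, 612 and 649 normalized counts in control and at 386, 365 and 417 in low glucose. Every low-glucose library was well below every control library. Its log2 fold change was −0.76 (95% interval −0.96 to −0.56, adjusted p = 3.05e-05). EIF4G1, the main scaffold, was at 16033, 21365 and 14494 in control and at 10142, 9895 and 10063 in low glucose. The controls were spread and the low-glucose libraries nearly equal, and the groups did not overlap (log2 fold change −0.77, 95% interval −1.02 to −0.52, adjusted p = 0.000191).

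EIF4E2, a cap-binding homologue known for repressing translation, was at 705, 760 and 767 in control and at 502, 479 and 501 in low glucose. It fell by 0.59 on the log2 scale with an adjusted p of 8.82e-05. EIF4E2 shares 1194 exonic bases with a gene on the opposite strand that held 100 to 124 reads per library and fell by 0.41. EIF4G2, a scaffold that lacks the site for eIF4E, was at 10096, 12450 and 9527 against 8307, 8298 and 8767. All low-glucose libraries were again the lower ones, by a smaller step (log2 fold change −0.33, standard error 0.10, adjusted p = 0.0186). The call of EIF4G2 was lost without each low-glucose library in turn, with adjusted p values of 0.101, 0.102 and 0.0645, after quantile normalization (0.0958) and without the variance trend (0.131).

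EIF4A2, one of the paired eIF4A helicases, was at 4794, 3630 and 4914 in control and at 7024, 7066 and 7532 in low glucose. It rose in every low-glucose library, to 1.62 times the control mean (log2 fold change 0.71, 95% interval 0.49 to 0.93, adjusted p = 0.000131). A gene on its opposite strand, with 435 shared exonic bases and 254 to 835 reads per library, rose by 0.77. EIF4B, which stimulates the helicase, was at 3581, 3758 and 3092 against 4422, 4162 and 4483. All 3 low-glucose values lay above the controls (log2 fold change 0.33, standard error 0.08, adjusted p = 0.00819). The antisense gene TNS2-AS1 shares 747 exonic bases with EIF4B, held 893 to 1845 reads per library and rose by 0.39. EIF4B lost its call when the low-glucose library of 10595408 reads (adjusted p = 0.0567) or that of 13733477 reads (adjusted p = 0.0593) was left out, and without the variance trend (adjusted p = 0.0917). Libraries were made with a directional kit, but whether counting used strand is not stated, so reads of EIF4E2, EIF4A2 and EIF4B cannot be told apart from those of their opposite-strand partners where exons overlap.

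The other 6 members of the complex did not pass the test. PABPC1, the main cytoplasmic poly(A)-binding protein, was at 23594, 28060 and 21673 against 22698, 22890 and 23515, with every low-glucose value inside the control range (log2 fold change −0.08, 95% interval −0.30 to 0.14). PABPC4, an inducible relative, was at 4720, 5232 and 4896 against 4533, 4306 and 4407, a log2 fold change of −0.16 (adjusted p = 0.111). EIF4H, a helicase cofactor, was at 6980, 7075 and 6911 against 6378, 6379 and 6152, a log2 fold change of −0.15 (adjusted p = 0.134). For PABPC4 and EIF4H the low-glucose libraries lay below the controls, by small steps. PABPC4-AS1 on the opposite strand shares 1118 exonic bases with PABPC4 and held 1033 to 1477 reads per library. EIF4G3, the third scaffold, was at 1326, 1419 and 1196 against 1422, 1526 and 1530, a log2 fold change of 0.19 (adjusted p = 0.101). Without the control library of 10126218 reads EIF4H passed the test (adjusted p = 0.0483), as did EIF4G3 (adjusted p = 0.00704). EIF4G3 also passed after quantile normalization (log2 fold change 0.37, adjusted p = 0.00169) and after scaling by library size (log2 fold change 0.27, adjusted p = 0.0184).

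EIF4A1, usually the more abundant eIF4A helicase, was at only 126, 143 and 141 against 169, 142 and 145 normalized counts, with a log2 fold change of 0.15 (95% interval −0.13 to 0.43). Its exons are shared on the same strand by 1468 bases with the read-through gene SENP3-EIF4A1 and by 2187 bases with an unnamed gene. As counted, these 2 models held few reads, 3 to 16 and 0 to 4 per library. The small nucleolar RNA genes SNORA48, SNORD10 and SNORA67 also lie in its exons and held 0 reads. Reads cannot be told apart where exons are shared, and the level of EIF4A1 is uncertain. Why it was low was not tested. EIF4E3, a further cap-binding homologue, counted 2, 3 and 0 reads in the controls against 7, 6 and 5, and this depth does not carry a fold change.

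The genes that restrain the complex moved apart from each other. EIF4EBP1, the 4E-BP most studied as a target of mTORC1, was at 1393, 1229 and 1792 in control and at 2273, 2543 and 2359 in low glucose. Low-glucose values were all higher, at 1.63 times the control mean (log2 fold change 0.72, 95% interval 0.48 to 0.96, adjusted p = 0.000227). EIF4EBP2, a close relative with the same binding site for eIF4E, was at 1778, 2017 and 1511 against 1036, 1049 and 1046. It fell in every low-glucose library, to 0.59 of the control mean (log2 fold change −0.75, 95% interval −0.95 to −0.55, adjusted p = 3.94e-05). PDCD4, which binds eIF4A, was at 684, 708 and 625 against 671, 719 and 708, and the groups overlapped (log2 fold change 0.06, 95% interval −0.12 to 0.24). BBIP1 on the opposite strand shares 1277 exonic bases with PDCD4 and held 93 to 238 reads per library.

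EIF4EBP3, the third 4E-BP, had few reads, 5, 7 and 3 in the controls against 21, 19 and 13. Its log2 fold change of 1.41 had a wide interval, 0.47 to 2.34, at an adjusted p of 0.0244. The call was lost without 4 of the 6 libraries, with adjusted p values of 0.0519 without the control library of 9741183 reads, 0.065 without that of 10190154 reads, and 0.124 and 0.11 when the low-glucose libraries of 10595408 and 10841656 reads were left out. DESeq2 gave an adjusted p of 0.06, quantile normalization 0.0726 and the fit without the variance trend 0.0576. The gene also shares 507 of its 693 exonic bases with the read-through gene ANKHD1-EIF4EBP3, which had 9 to 24 reads per library.

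**Figure D2:**
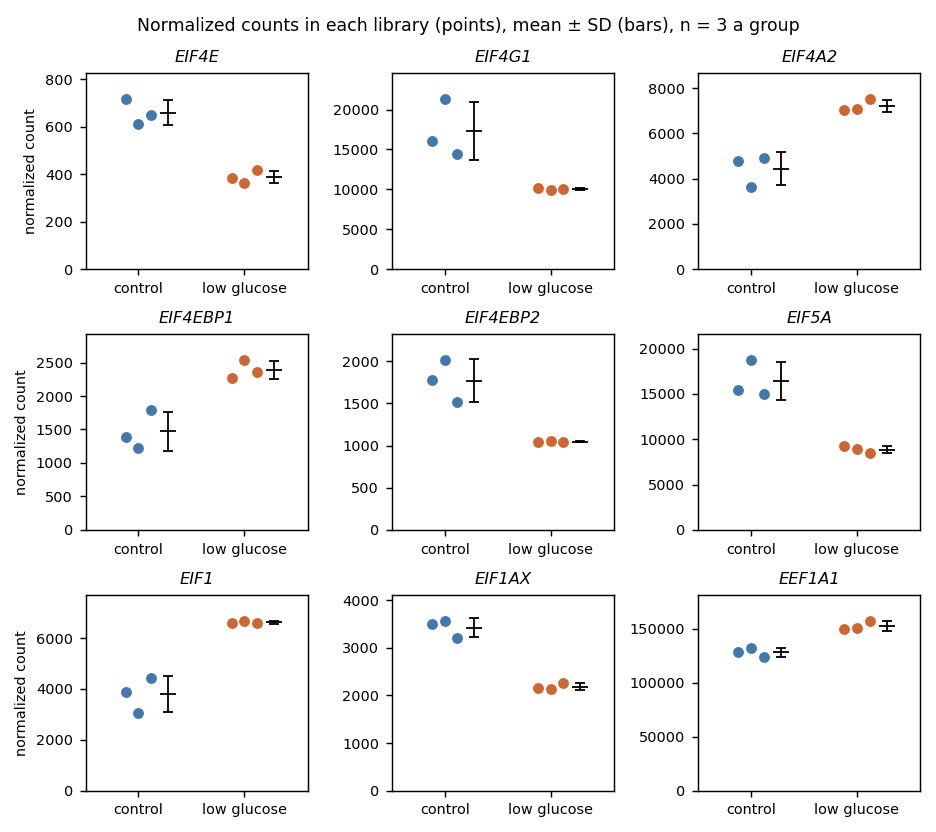
Normalized counts of 9 members in each library (points) by group on a linear axis from 0, with bars for mean ± SD (n = 3). EIF4E, EIF4G1, EIF4EBP2, EIF5A and EIF1AX sit lower in all 3 low-glucose libraries, and EIF4A2, EIF4EBP1, EIF1 and EEF1A1 higher, the latter at an adjusted p of 0.12.

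Ratios between related genes were compared library by library, since a ratio within a library does not depend on its scaling. Over 10 pairs chosen by their relation, the exact permutation test (two-sided) could not go below p = 0.1 with 3 libraries against 3, or below 0.167 after adjustment over the pairs. That limit was reached by 6 of the pairs. EIF4EBP1 relative to EIF4E was at log2 ratios of 0.95, 1.01 and 1.46 in control and 2.55, 2.80 and 2.50 in low glucose, a 2.78-fold higher ratio in which both genes moved away from each other. EIF4EBP2 relative to EIF4EBP1 was at 0.35, 0.71 and −0.25 against −1.13, −1.28 and −1.17, a ratio 0.362 times that of the controls, with every low-glucose library below every control. EIF4G3 relative to EIF4G1 was at −3.70 ± 0.18 in control and −2.75 ± 0.07 in low glucose (SD, n = 3). EIF4G2 relative to EIF4G1 was at −0.68 ± 0.09 and −0.25 ± 0.05, and both ratios were higher in every low-glucose library.

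EIF4A2 relative to EIF4A1 was at a log2 ratio of 5.24, 4.66 and 5.11 in control and 5.37, 5.62 and 5.69 in low glucose, with the reservation on EIF4A1 given above. EIF4E3 relative to EIF4E rests on the few reads of EIF4E3. For the remaining 4 pairs the groups overlapped. EIF1B relative to EIF1 was at −4.78 ± 0.10 in control and −4.83 ± 0.15 in low glucose (exact permutation p = 0.7), a difference of −0.05. PABPC4 relative to PABPC1 differed by −0.09 (exact permutation p = 0.6), EIF4E2 relative to EIF4E by 0.17 (p = 0.2 in the same exact test) and EIF4EBP3 relative to EIF4EBP1 by 0.69 (p = 0.3 in the same exact test).

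**Figure D3:**
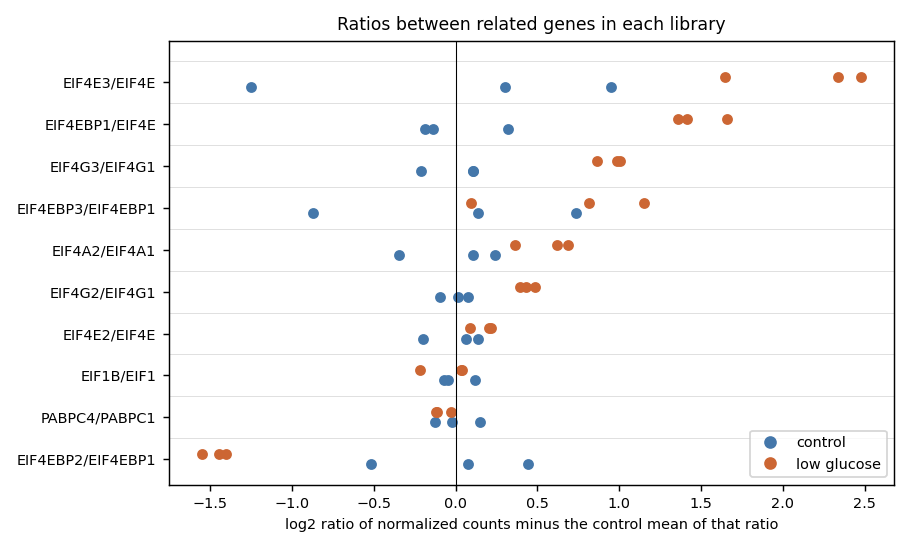
Log2 ratio of normalized counts in each library for 10 pairs of related genes, minus the control mean of that ratio (x axis), with control libraries in blue and low-glucose libraries in orange. EIF4EBP1/EIF4E and EIF4EBP2/EIF4EBP1 lie far from the controls on opposite sides, at differences of 1.48 and −1.47, and EIF1B/EIF1 and PABPC4/PABPC1 overlap them.

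Per kilobase of merged exons, EIF4EBP1 was at 12.6 ± 2.57 times the level of EIF4E in control and at 34.9 ± 3.98 times in low glucose (SD, n = 3). With the canonical transcript as the length of both genes, these level ratios were 6.56 ± 1.33 and 18.1 ± 2.07. EEF1A1 had the highest level per kilobase of all members in both groups, whichever of 3 lengths was used (merged exons, longest transcript or canonical transcript).

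Members of eIF3, the large complex that bridges the small subunit to eIF4G, spanned the narrowest range of the 5 roles. Of its 13 subunits, 1 rose, 3 fell and 9 did not pass, and the log2 fold changes ran from −0.36 to 0.24. The share called, 30.8%, was close to the 30.9% over all genes tested. The balance of rises and falls depended on the scaling. After quantile normalization under limma 6 were higher (EIF3F, EIF3M, EIF3K, EIF3H, EIF3E and EIF3L) and 0 lower. All 21101 genes tested there split into 2900 higher and 3125 lower. After scaling by library size 4 were higher and 2 lower, against 3935 and 2647 of 21143 genes tested. EIF3B, a core subunit, was at 6657, 8076 and 6472 in control and at 5431, 5370 and 5612 in low glucose (log2 fold change −0.36, standard error 0.09, adjusted p = 0.0064). EIF3J, a loosely bound subunit near the decoding centre, was at 1555, 1584 and 1490 against 1221, 1197 and 1181 (log2 fold change −0.36, standard error 0.07, adjusted p = 0.00156). EIF3D, which can itself bind the cap of some mRNAs, was at 2630, 2675 and 2541 against 2238, 2129 and 2241 (log2 fold change −0.25, standard error 0.07, adjusted p = 0.0158). For these 3 subunits all low-glucose libraries lay below all controls. Quantile normalization ended all 3 calls, with log2 fold changes of −0.22 for EIF3B (adjusted p = 0.0781), −0.18 for EIF3J (adjusted p = 0.0624) and −0.058 for EIF3D (adjusted p = 0.582). Scaling by library size also ended the call of EIF3D (log2 fold change −0.17, adjusted p = 0.0782), and a fit without the variance trend ended those of EIF3B (adjusted p = 0.085), EIF3D (0.0896) and EIF3F (0.0902).

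EIF3F was the subunit that rose, by 0.24 (adjusted p = 0.0175), with no overlap between the groups. The 9 others were EIF3M at 0.20, EIF3K at 0.19, EIF3H at 0.13, EIF3E at 0.09, EIF3L at 0.05, EIF3C at −0.04, EIF3G at −0.05, EIF3A at −0.10 and EIF3I at −0.18, all log2 fold changes with adjusted p values of 0.0609 or more. EIF3C is uncertain, because a near-identical copy, EIF3CL, had 16 to 28 reads per library. The calls of EIF3D and EIF3F were lost without the control library of 9741183 reads (adjusted p = 0.0618 and 0.0599) and also, among the low-glucose libraries, without that of 10595408 reads (0.0627 and 0.0907) or that of 10841656 reads (0.0929 and 0.0855), and that of EIF3D also without that of 13733477 reads (0.0525). EIF3B lost its call without the low-glucose library of 10841656 reads (adjusted p = 0.0527). EIF3I passed without the control library of 10126218 reads (adjusted p = 0.0277), and EIF3M (0.0197) and EIF3K (0.00454) without that of 10190154 reads.

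Among the 10 factors of start codon choice, initiator tRNA and subunit joining, 4 rose and 2 fell. Over all genes tested 14.7% rose and 16.2% fell, and over the 2317 abundant genes 13.4% rose and 48.6% fell. The difference of these 10 factors from either background was not tested. EIF1, which guards against starts at wrong codons, was at 3883, 3057 and 4442 in control and at 6596, 6690 and 6580 in low glucose. Low-glucose libraries were nearly equal and all far above the controls, at 1.75 times the control mean (log2 fold change 0.82, 95% interval 0.59 to 1.05, adjusted p = 5.79e-05). EIF1B, its paralogue, was at 152, 107 and 153 against 245, 249 and 205, also without overlap (log2 fold change 0.77, 95% interval 0.45 to 1.09, adjusted p = 0.00127). EIF5B, the GTPase that joins the subunits, was at 5266, 6169 and 4035 against 3267, 3131 and 3338 (log2 fold change −0.65, 95% interval −0.90 to −0.39, adjusted p = 0.000791). All low-glucose values of EIF5B were below the controls, which were themselves widely spread, and its call was lost without the variance trend (adjusted p = 0.055).

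EIF1AX, which works with eIF1 on the scanning ribosome, fell by 0.64 on the log2 scale (adjusted p = 1.74e-05), while EIF1 rose. EIF2A, a non-canonical initiator tRNA factor that is not a subunit of eIF2, rose by 0.34 (adjusted p = 0.00437), and EIF2D, a further tRNA delivery and recycling factor, by 0.30 (adjusted p = 0.0143). EIF2D lost its call without the low-glucose library of 13733477 reads (adjusted p = 0.086) and without the variance trend (adjusted p = 0.0756). EIF2A shares 252 exonic bases with SERP1 on the opposite strand, which had 1761 to 3466 reads per library and rose by 0.50. The other 4 did not pass, with log2 fold changes of −0.19 for EIF2S3 (eIF2 gamma), −0.10 for EIF5 (which activates the GTPase of eIF2), −0.01 for EIF6 (which keeps free large subunits apart from small ones) and −0.0037 for EIF2S2 (eIF2 beta). EIF2S3 passed without the control library of 10190154 reads (log2 fold change −0.31, adjusted p = 0.00652), and EIF2S2 after quantile normalization (log2 fold change 0.22, adjusted p = 0.0299). The third eIF2 subunit, EIF2S1 (eIF2 alpha), is not a member and fell by 0.52 on the log2 scale (adjusted p = 0.000126).

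Elongation factors also went both ways. EIF5A, a factor activated by the hypusine modification, was at 15444, 18791 and 15052 in control and at 9273, 8881 and 8442 in low glucose. It fell to 0.54 of the control mean with no overlap, the lowest log2 fold change of all members (−0.88, 95% interval −1.09 to −0.68, adjusted p = 9.22e-06). GPS2 on the opposite strand shares 241 exonic bases with EIF5A, had 4168 to 7590 reads per library and fell by 0.83. EEF1B2, an exchange factor subunit, was at 4612, 3807 and 5118 against 5630, 5858 and 5626 (log2 fold change 0.35, standard error 0.10, adjusted p = 0.0133). Its call was lost without each low-glucose library in turn (adjusted p = 0.0615, 0.0836 and 0.0625) and without the variance trend (0.125).

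EEF1A1, the tRNA carrier, was at 128283, 132079 and 124221 in control and at 149578, 150839 and 157770 in low glucose. All low-glucose values were higher, at 1.19 times the control mean, but the log2 fold change of 0.25 (95% interval 0.00 to 0.50) did not pass limma's test (adjusted p = 0.12). The call depended on the method, with adjusted p values of 0.0175 in edgeR, 0.00178 in DESeq2, 0.0253 after scaling by library size and 0.000572 without the control library of 10126218 reads. Quantile normalization moved its log2 fold change to 0.00. A gene with the same rank in every library gets equal values there, so this cannot show whether EEF1A1 changed. Its pseudogene copy EEF1A1P5, with 641 to 1140 reads per library, rose by 0.34 (adjusted p = 0.00468). The paralogue EEF1A2, not a member, fell by 0.41 on the log2 scale (adjusted p = 0.000948). EEF1D, a further exchange factor subunit, was at 4266, 4429 and 4603 against 4719, 4709 and 4491, with overlap between the groups (log2 fold change 0.07, 95% interval −0.09 to 0.22). After quantile normalization EEF1D passed the test (log2 fold change 0.27, adjusted p = 0.0101). An unnamed gene on the opposite strand shares 2934 of its 9390 exonic bases and held 1977 to 3583 reads per library. Reads of EEF1D cannot be told apart from those of this gene where exons overlap.

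The control library of 10126218 reads lay farthest from the low-glucose libraries among the controls for 15 of the 21 members called, as for EIF1, EIF4A2, EIF4G1 and EIF5B. How often this library lay farthest over all genes was not counted, so no trait of the members is read from it. Without it all 21 remained called, and 13 members were higher and 13 lower. Over all 21101 genes tested, leaving it out gave 3468 higher and 3705 lower, against 3111 and 3417 with it.

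To show which members begin with the form of a TOP and which do not, 30 bases around starts of transcription listed in RefSeq (GRCh38.p14) are printed 5′ to 3′ on the strand of the gene, with 10 bases before the start and 20 from it. Capitals mark a C at the start and the C and T bases that follow it without a break, where there are at least 4 of them, the form of a TOP. Of the 44 members 34 had a listed start, and the sets printed are the 7 members called that had such a start, EEF1A1, and 6 members without one whose log2 change exceeded 0.6, each with a single listed start and a mean above 100 normalized counts.
EEF1A1: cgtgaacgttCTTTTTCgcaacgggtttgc (chr6:73521013-73521042, minus strand)
EEF1B2: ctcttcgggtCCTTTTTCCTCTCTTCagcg (chr2:206159885-206159914, plus strand, second of 2 listed starts)
EIF2A: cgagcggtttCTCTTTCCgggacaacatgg (chr3:150546777-150546806, plus strand)
EIF2D: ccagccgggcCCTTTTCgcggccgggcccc (chr1:206612446-206612475, minus strand)
EIF3D: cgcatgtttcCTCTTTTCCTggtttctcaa (chr22:36529147-36529176, minus strand)
EIF3F: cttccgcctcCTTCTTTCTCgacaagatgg (chr11:7987327-7987356, plus strand)
EIF4A2: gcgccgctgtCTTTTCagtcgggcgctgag (chr3:186783567-186783596, plus strand)
EIF4B: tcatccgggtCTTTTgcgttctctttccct (chr12:53006446-53006475, plus strand)
EIF1: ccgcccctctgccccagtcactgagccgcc (chr17:41688875-41688904, plus strand)
EIF1B: cattttgtgcgagaagccgcagcgccgcct (chr3:40309697-40309726, plus strand)
EIF1AX: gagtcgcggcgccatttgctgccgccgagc (chrX:20141819-20141848, minus strand)
EIF4E: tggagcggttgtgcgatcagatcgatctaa (chr4:98929114-98929143, minus strand)
EIF4EBP2: gccttcgcccgcttccggtcgtcgtcgtcg (chr10:70404135-70404164, plus strand)
EIF5B: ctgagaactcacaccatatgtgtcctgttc (chr2:99337379-99337408, plus strand)

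Such a start was listed for 11 of the 33 tested members with a listed start. Of these 11, 6 rose (EEF1B2, EIF2A, EIF2D, EIF3F, EIF4A2 and EIF4B), 1 fell (EIF3D) and 4 did not pass (EEF1A1, EIF2S3, EIF3K and EIF3M), with a median log2 fold change of 0.25. Of the 22 others 3 rose (EIF1, EIF1B and EIF4EBP3) and 10 fell, with a median of −0.16. Over all listed starts of the genome (34961), 4.08% had this form. Among all tested genes with a listed start, 866 had it, of which 21.7% rose and 19.1% fell, and of the 11591 without it 16.3% rose and 21.0% fell. Limited to abundant genes (at least 1000 normalized counts on average), 22.2% of 212 with this start rose and 30.7% fell, and 11.2% of 1682 without it rose and 52.9% fell. In cytosolic ribosomal protein genes, the classical TOP mRNAs, 46 tested genes had it, of which 19 rose and none fell under limma, and all 46 had a positive log2 fold change, with a median of 0.30. The 18 without it went the same way, with 4 higher and none lower under limma, 17 positive log2 fold changes and a median of 0.20. Among the 9 members listed as TOP mRNAs by name, 8 were tested, of which 3 rose (EEF1B2, EIF3F and EIF4B) and none fell, with a median log2 fold change of 0.19. The rule for the start was chosen after the changes were known, no test was run, and RefSeq starts are not the starts used in these cells.

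Transcript length moved with the change as well. The 13 members with a canonical transcript of up to 2000 bases had a median log2 fold change of 0.15, the 20 between 2000 and 4000 bases of 0.02 and the 10 longer ones of −0.10. Over the 2317 abundant genes defined above, the medians were −0.06, −0.24 and −0.28 in the same 3 classes. Spearman's rho between length and change was −0.19 across the 43 members and −0.21 across the 2317 genes, a description over genes that share libraries. EIF5A and EIF4E2 are short and fell, and EIF3F and EIF3M are long and did not. The part of length in these results was not tested.

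**Figure D4:**
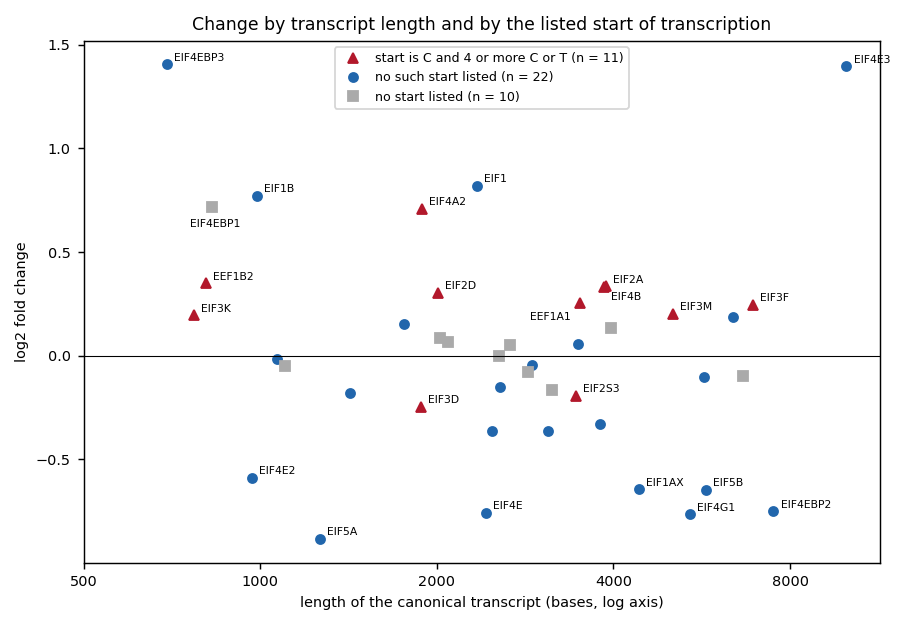
Log2 fold change (y axis) against the length of the canonical transcript (x axis, log scale) for the 43 members tested, with triangles for the 11 members with a listed start of C and at least 4 more C or T, circles for the 22 without and squares for the 10 with no listed start. In the plot 9 of the 11 triangles lie above 0 over the whole range of lengths, and 15 of the 22 circles lie below.

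A second sequence, the E-box CACGTG, which is its own reverse complement and is the preferred site of MYC with MAX, was searched from 250 bases before to 50 after each start. EIF4E and EIF4G1, the cap-binding protein and its scaffold, each held 2 copies, shown here in capitals because EIF4E is a textbook MYC target. Both fell, whereas other members with the sequence, not printed, rose.
EIF4E, 225 bases before the start: ctacccatcggcCACGTGaccagtcctttt (chr4:98929341-98929370, minus strand)
EIF4E, 72 bases before the start: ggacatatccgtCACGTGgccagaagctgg (chr4:98929188-98929217, minus strand)
EIF4G1, 144 bases before the first listed start: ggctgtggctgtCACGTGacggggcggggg (chr3:184314450-184314479, plus strand)
EIF4G1, 67 bases before the first listed start: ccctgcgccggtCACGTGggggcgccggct (chr3:184314527-184314556, plus strand)

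The sequence was in 7.27% of all 34961 windows and in at least 1 window of 8 members, EIF1B, EIF3F, EIF3K, EIF4B, EIF4E, EIF4EBP3, EIF4G1 and EIF4H. These 8 went both ways, with 4 higher (EIF1B, EIF3F, EIF4B and EIF4EBP3) and 2 lower, the EIF4E and EIF4G1 printed above. A part of MYC in these changes was not tested. Among all tested genes with a listed start, 18.2% of the 1482 with the sequence rose and 21.8% fell, and of the 10975 without it 16.5% rose and 20.7% fell.

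Of 27 other genes of the pathway 26 were tested, of which 2 rose and 14 fell, or 7.69% and 53.8%, with a median log2 fold change of −0.35. The shares over all genes tested were 14.7% and 16.2%, and those over the 2317 abundant genes 13.4% and 48.6%. Of the 16 pathway genes in that abundant class, 1 rose and 11 fell. MKNK2, a kinase that phosphorylates eIF4E, was at 2858, 3152 and 3140 in control and at 5573, 5592 and 5487 in low glucose (log2 fold change 0.87, adjusted p = 1.18e-06). DDX3X, a helicase that unwinds structured leader sequences, was at 6357, 7031 and 5741 against 4144, 4159 and 4284 (log2 fold change −0.60, adjusted p = 8.92e-05). ETF1, the release factor that reads stop codons, was at 5633, 6446 and 5189 against 3819, 3829 and 3927 (log2 fold change −0.57, adjusted p = 0.000153). DHX29, a helicase for structured leaders, was at 1089, 1210 and 955 against 707, 702 and 793 (log2 fold change −0.56, adjusted p = 0.000472). The groups of all 4 genes were apart, with MKNK2 alone on the higher side.

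Other parts of the translation machinery were set beside the members. Of 79 tested cytosolic ribosomal protein genes 26 rose (32.9%) and none fell (limma), with a median log2 fold change of 0.27. Of 20 cytosolic aminoacyl-tRNA synthetases 6 rose (30.0%) and 6 fell (30.0%), with a median of −0.04. Over all genes tested 14.7% rose and 16.2% fell. Differences between these lists and the members were not tested.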

How the data were processed

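RNA from 6 MiaPaCa-2 cultures was sequenced. Per the labels the authors trimmed reads with Trim Galore, aligned them to hg38 with STAR 2.7.0e and used DESeq2. Libraries were strand-specific (NEBNext Ultra directional kit). RSEM is among the software the study lists, but whether it made these counts, with which strand setting and on which annotation, is not given in the sources used here. Each deposited value is a count-scale signal: the authors' gene count over the library's size factor. In every library 100% of values were whole multiples of 1 read (tolerance 0.01 reads), and size factors recomputed over 17906 genes gave the same steps. Only low-glucose replicates 1 and 2 have a column named in their labels, and the other 4 columns were assigned to groups by column name. The labels' treatment text gives 2.5 mM for every sample, and the control concentration is from the series' design.

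Identifiers were matched to Gencode v44 (99.4%). Genes with a mean of at least 1 were tested with limma 3.58.1 (trend) on log2(value + 1), with Benjamini-Hochberg adjustment at 0.05, so fold changes of low genes are understated. edgeR 4.0.16 and DESeq2 1.42.0 were run on recovered reads, where edgeR called 6554 genes. On data simulated from the control means, limma recovered 91 of 100 genes changed by 1 on the log2 scale and 33 of 100 changed by 0.5. The simulated spread was assumed and far fewer genes changed than in the real data. These rates therefore do not give the sensitivity reached here. Members and lists were chosen with earlier results of these data known. Values are given per library for the cap-binding, inhibitor and elongation members, for the 3 largest called changes of the other roles, and for the 4 largest of the other pathway genes. Promoter windows came from RefSeq GRCh38.p14 (python 3.11.15, scipy 1.17.1). Some genes of the pathway are counted and not named.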

Additional observations from a re-analysis of the deposited data

How the results depend on the processing

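No paired analysis was possible because replicate numbers are given for 2 of 6 columns only. None of the 21 called members changed direction under any of the 15 alternatives run that tested it, and 11 kept their call under all of them. EIF4EBP3 was tested in 14, as edgeR did not test it. Quantile normalization gave 17 members higher and 7 lower with a median of 0.16. A fit without the variance trend gave 5 higher and 7 lower, of 4090 genes called. Leaving out 1 library gave 6 to 13 members higher, 8 to 13 lower, a median of −0.0088 to 0.066 and 4298 to 7173 genes called. Scaling by library size split all calls into 3935 higher and 2647 lower, against 3111 and 3417. The cause of these shifts was not tested. Signs of members near 0 turned. Scaling by library size gave 0.0035 for PABPC1, 0.031 for EIF3G, 0.038 for EIF3C, 0.067 for EIF6 and 0.077 for EIF2S2, TMM 0.0096 for EIF2S2, and edgeR 0.0054 for EIF6 and 0.018 for EIF2S2. Quantile normalization gave 0.025 for EIF3I, 0.026 for PABPC4, 0.070 for EIF5, 0.046 for EIF3A, 0.16 for EIF3G, 0.16 for EIF6 and 0.22 for EIF2S2. Leaving out 1 library gave −0.20 to 0.0077 for EIF3A, −0.16 to 0.026 for PABPC1, −0.0042 to 0.12 for EIF3L, −0.18 to 0.10 for EIF3C, −0.055 to 0.053 for EIF6, −0.031 to 0.027 for EIF2S2 and −0.092 to 0.035 for the ratio of EIF1B to EIF1. Per kilobase of the longest or the canonical transcript, EIF4EBP1 stood at 6.56 times EIF4E in control and 18.1 times in low glucose, as merged exons are longer than either. The canonical length was added after the data were seen. With 3 libraries a group, exact tests stop at p = 0.1, and EIF4E3, EIF4EBP3 and EIF4A1 are limited by their reads.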
